A study of Homo sapiens with 5 samples.

Results

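The genes described here were 44 genes of the kinetochore and centromere, chosen by name from a fixed list. That list was made with earlier results of these data known. All 44 genes were found by their symbols among the 26364 genes of the deposited table. They were measured by mRNA-seq in IMR-90 cells, fibroblasts of normal human lung, 24 hr after siRNA transfection. Of the 5 libraries, 2 were biological replicates of Ctr-KD cells, which received a control siRNA against luciferase GL3, which human cells do not carry. The other 3 were NSD2-KD cells, and every one had its own siRNA to NSD2 (NSD2-1, NSD2-2 or NSD2-3), so that siRNA and replicate cannot be told apart within NSD2-KD cells. NSD2, also called WHSC1 or MMSET, is a histone H3 lysine 36 methyltransferase, and the comparison asks which transcripts differ when it is depleted.

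The kinetochore is the protein assembly that joins each chromosome to spindle microtubules at mitosis. It is built on centromeric chromatin, which is marked by the histone H3 variant CENP-A rather than by a DNA sequence. An inner network of CENP proteins sits on this chromatin all through the cell cycle, the outer kinetochore assembles on it at mitosis and binds microtubules, and the chromosomal passenger complex and the spindle checkpoint correct and monitor the attachments. Many, but not all, of these genes are transcribed mainly in G2 and mitosis, and cells that leave the cell cycle lower them. In mRNA from a whole culture, fewer cells in these phases and less RNA per cell cannot be told apart.

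The libraries held between 2473691 and 2845063 reads on genes, and 1 read corresponded to between 0.92 and 1.09 normalized counts. NSD2, listed as WHSC1, had 463 and 443 normalized counts in Ctr-KD cells and 90.2, 81.9 and 87.9 with NSD2-1, NSD2-2 and NSD2-3, or 18.1% to 19.9% of the mean in Ctr-KD cells. All 8 fibroblast markers examined, among them COL1A1 and VIM, passed the filter on low counts, and the 5 epithelial markers were at or under 3 reads in every library. The endothelial markers PECAM1 and CDH5 and the immune markers PTPRC and CD3E were at 0, whereas VWF had up to 5.52 normalized counts and CD68 between 60.5 and 103. The sum of the proliferation markers MKI67, TOP2A and PCNA was between 1762 and 1846 normalized counts in Ctr-KD cells and between 527 and 1036 in NSD2-KD cells, moving in the same direction as the genes described below. The part of cell cycle position in the differences was not tested. Between both Ctr-KD libraries the spread was near that of counting alone, with a chi-square of 1.05 per degree of freedom. They may therefore be close to technical repeats, in which case p-values measure too small a spread on the Ctr-KD side. Pairs of a Ctr-KD and an NSD2-KD library gave 3.87 to 5.08, and pairs of NSD2-KD libraries gave 5.05 to 5.29. The NSD2-KD libraries thus lay about as far from one another as from the Ctr-KD libraries, or further.

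Most kinetochore and centromere genes had lower levels in NSD2-KD cells than in Ctr-KD cells. Of the 44 members, 42 passed a filter on low values (10 normalized counts or more, on average over the 5 libraries), and OIP5 and CENPQ did not. In limma, a linear model whose estimate of the spread borrows from all genes, on log2(normalized count + 1), 41 of the 42 had a log2 difference below 0, as had 51.5% of all 11313 tested genes. The median log2 difference was -0.79 over the members and -0.01 over all tested genes. Every NSD2-KD library lay below both Ctr-KD libraries for 35 of the 42 tested members (83.3%), against 13.9% of all tested genes, and for 37 of all 44 members. None lay above without overlap, against 13.8% of all tested genes. The 7 tested members whose groups overlapped were CENPB, CENPH, CENPP, CENPU, CENPV, CENPW and PMF1.

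No member passed an adjusted p of 0.05 over all tested genes in limma, where 0.053% of all tested genes were lower and 0.0354% higher. The lowest adjusted p among the members was 0.147, for CDCA8. At an unadjusted p under 0.05, 25 of the 42 (59.5%) were lower and 0 were higher, against 4.99% and 4.19% of all tested genes. In edgeR's quasi-likelihood test on the recovered reads, 26 members passed an unadjusted p of 0.05 downwards (5.28% of all tested genes), 0 upwards (3.96%) and 0 downwards after adjustment (0.0972%), with a lowest adjusted p of 0.0983. DESeq2 gave 21 members at an unadjusted p under 0.05 (3.1% of all tested genes) and called 2 lower after adjustment, CDCA8 (adjusted p = 0.0127) and NDC80 (adjusted p = 0.0329), against 0.471% of the genes for which it gave an adjusted p. It gave none for 13 of the 42 tested members. With the Ctr-KD libraries averaged into 1 sample, the number lower at an unadjusted limma p under 0.05 was 13 (1.8% of all tested genes), and without Ctr-KD replicate 1 it was 12 (2.12%). In either case the median difference stayed close to its value in all 5 libraries, at -0.80 and -0.78.

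**Figure D1:**
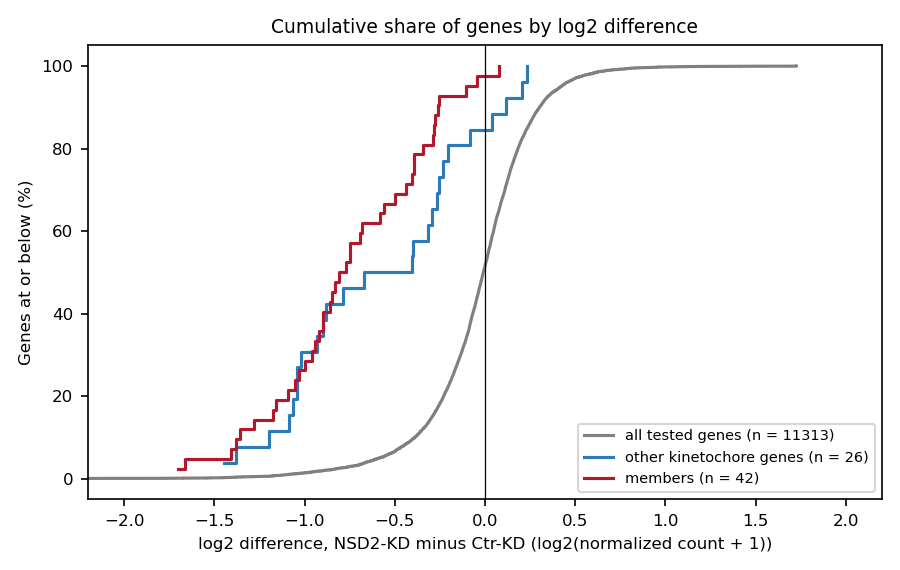
Cumulative share of genes, in percent, by the log2 difference between NSD2-KD and Ctr-KD cells on log2(normalized count + 1), for all 11313 tested genes, 26 other kinetochore genes and the 42 tested members. The curve of the members lies to the left of that of all tested genes, with medians of -0.79 and -0.01.

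To show the sequence context of some of these genes, the promoters of 4 members are given here. They are NDC80 (chr18:2571307-2571606, plus strand) and CDCA8 (chr1:37692266-37692565, plus strand), the members that DESeq2 called, CENPF (chr1:214602945-214603244, plus strand), the member with the most reads in Ctr-KD cells, and CENPB (chr20:3786691-3786990, minus strand), for which no difference was detected. Sequences are from RefSeq on GRCh38.p14, on the strand of the gene, from 250 bases before to 50 bases after the start. Capitals mark 3 kinds of letters sought on both strands. They are TTTGAA, the core of the CHR element of genes expressed in G2 and mitosis, CCAAT, the core of NF-Y sites, and the E2F-type words, which are TTCCCGC and the forms TTCGCGC as well as TTGCCGC and also TTGGCGC.
NDC80: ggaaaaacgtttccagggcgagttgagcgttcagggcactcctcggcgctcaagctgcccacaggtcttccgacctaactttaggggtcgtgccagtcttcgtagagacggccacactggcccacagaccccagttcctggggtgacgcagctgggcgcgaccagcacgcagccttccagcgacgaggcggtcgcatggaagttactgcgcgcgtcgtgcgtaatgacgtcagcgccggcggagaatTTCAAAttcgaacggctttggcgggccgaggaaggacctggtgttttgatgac
CDCA8: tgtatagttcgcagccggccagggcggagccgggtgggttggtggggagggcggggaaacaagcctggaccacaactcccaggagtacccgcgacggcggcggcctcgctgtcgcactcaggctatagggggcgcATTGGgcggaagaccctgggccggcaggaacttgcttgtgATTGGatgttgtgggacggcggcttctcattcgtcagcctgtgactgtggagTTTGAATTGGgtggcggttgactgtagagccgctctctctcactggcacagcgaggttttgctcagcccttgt
CENPF: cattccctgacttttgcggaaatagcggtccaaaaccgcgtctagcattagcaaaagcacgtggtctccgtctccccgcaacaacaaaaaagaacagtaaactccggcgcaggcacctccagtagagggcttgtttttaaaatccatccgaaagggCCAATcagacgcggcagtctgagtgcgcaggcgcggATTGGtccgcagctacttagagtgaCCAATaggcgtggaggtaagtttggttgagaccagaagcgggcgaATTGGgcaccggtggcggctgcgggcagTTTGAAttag
CENPB: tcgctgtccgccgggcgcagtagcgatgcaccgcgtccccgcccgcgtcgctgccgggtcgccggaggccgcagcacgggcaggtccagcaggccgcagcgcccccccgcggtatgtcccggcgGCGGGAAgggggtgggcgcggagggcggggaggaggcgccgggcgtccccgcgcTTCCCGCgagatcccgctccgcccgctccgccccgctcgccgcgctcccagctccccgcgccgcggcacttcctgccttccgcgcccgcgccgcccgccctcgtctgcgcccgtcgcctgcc

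The NDC80 promoter held 1 TTTGAA match, read on the other strand, which starts 3 bases before the transcript start. In CDCA8 a TTTGAA match 23 bases before the start shares its last base with 1 of 3 CCAAT matches. CENPF held 4 CCAAT matches and 1 TTTGAA match 41 bases into the transcript, and CENPB held 2 E2F-type matches and neither of the other words. A promoter was at hand for 36 members. TTTGAA was found in 16 of the 36 (44.4%), CCAAT in 23 (63.9%) and an E2F-type word in 15, against 5324 (15.2%), 12155 (34.6%) and 4553 of all 35116 promoters of the same length. Of the 36 members with a promoter, 21 were lower at an unadjusted limma p under 0.05, and 13 of the 21 held TTTGAA (61.9%). Another 13 of the 36 were tested and did not pass, and 3 of those held it (23.1%). For CCAAT the shares were 61.9% and 61.5%, and for the E2F-type words 38.1% and 38.5%. Matches were counted anywhere in the promoter, and differences between these shares were not tested. A match describes these letters only and not the binding of a factor.

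CENP-A itself and the factors that load it form the first group of 4 genes. HJURP, the chaperone that deposits CENP-A, had normalized counts of 79.1 and 94.6 in Ctr-KD cells and 31.3, 19.7 and 52.7 with NSD2-1, NSD2-2 and NSD2-3. All 3 siRNAs left it below both Ctr-KD libraries, most with NSD2-2. The difference between groups was -1.41 on the log2 scale (standard error 0.36, unadjusted p = 0.00436, adjusted p = 0.267 from limma). CENPA was at 26.7 and 28.8 in Ctr-KD cells and at 22.1, 7.65 and 16.6 in NSD2-KD cells, with a difference of -0.92 and a 95% interval from -1.86 to 0.03. MIS18A, a subunit of the complex that prepares centromeres for loading, had 35.2 and 31.9 against 13.8, 2.18 and 24.4. The NSD2-2 value rests on 2 reads, which cannot be distinguished from 0, and the difference of -1.70 had the widest interval of all tested members, from -3.41 to 0.01. OIP5, its partner in that complex, was not tested. OIP5 was at 13.3 and 14.4 normalized counts in Ctr-KD cells and at 5.52, 1.09 and 12.7 in NSD2-KD cells, where 1.09 is 1 read. Exons of NUSAP1 and OIP5-AS1 on the other strand cover 92.5% of its exonic bases, so its count is uncertain.

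The inner centromere network had 14 members, and differences between the role groups were not tested. Of its 13 tested members 4 were lower at an unadjusted p under 0.05 (4.99% of all tested genes), 8 lay below Ctr-KD cells without overlap (13.9% of all tested genes), and the median log2 difference was -0.40. CENPN, which reads CENP-A nucleosomes, had 146 and 129 normalized counts in Ctr-KD cells and 92.9, 84.1 and 96.6 in NSD2-KD cells, a difference of -0.58 (standard error 0.15, unadjusted p = 0.00417, adjusted p = 0.267 from limma). The 3 siRNAs gave closely similar values here. CENPI, a subunit of the CENP-H/I/K/M group, was at 43.8 and 28.8 against 20.2, 14.2 and 22.5, a difference of -0.90. CENPM, of the same group, was at 28.6 and 34.0 against 21.2, 6.55 and 19.5, a difference of -1.09. Unadjusted p-values were 0.0165 and 0.0449, and the adjusted p-values 0.398 and 0.527 in limma. CENPO, of the CENP-O/P/Q/U group, had 160.0 and 178 in Ctr-KD cells and 121, 130.0 and 134 in NSD2-KD cells, a smaller difference of -0.39 with an interval from -0.70 to -0.09, but exons of ADCY3 and PTRHD1 on the other strand cover 31.6% of its exonic bases.

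The remaining members of the inner network did not pass. CENPB, which binds a motif in alpha-satellite DNA, had 356 and 380 normalized counts in Ctr-KD cells and 374, 351 and 306 in NSD2-KD cells, and the groups overlapped. Its log2 difference of -0.10 had a 95% interval from -0.38 to 0.17, so a change of 1 log2 unit lay outside the interval. CENPT, a histone-fold subunit that reaches from the centromere to the outer kinetochore, was at 141 and 144 against 114, 134 and 109, a difference of -0.26 with an interval from -0.60 to 0.08. Its partner CENPW was at 32.4 and 51.4 against 35.0, 26.2 and 40.0. CENPC, the other link to the outer kinetochore, was at 29.5 and 43.2 against 23.9, 28.4 and 28.3, with a difference of -0.40. CENPH, CENPK, CENPL, CENPP and CENPU had between 12.9 and 44.2 normalized counts in every library and differences from -0.68 to -0.26, with 95% intervals that all include 0. CENPQ was not tested, with 9.53 and 13.4 normalized counts in Ctr-KD cells and 3.68, 2.18 and 7.81 in NSD2-KD cells.

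In the outer kinetochore, 7 of 10 members were lower at an unadjusted p under 0.05, 9 of 10 lay below Ctr-KD cells without overlap (4.99% and 13.9% of all tested genes), and the median log2 difference was -0.84. The NDC80 complex is a 4-subunit rod that binds microtubules directly. NDC80 had 61.9 and 71.0 normalized counts in Ctr-KD cells and 34.0, 21.8 and 20.5 with NSD2-1, NSD2-2 and NSD2-3, with every NSD2-KD library well below both Ctr-KD libraries. On the log2 scale it differed by -1.38 (standard error 0.26, unadjusted p = 0.000701, adjusted p = 0.193 from limma). Its coiled-coil partner NUF2 was at 67.6 and 56.6 against 30.4, 12.0 and 35.1, a difference of -1.36 (standard error 0.41, adjusted p = 0.351 from limma). The other two subunits anchor the rod to the inner kinetochore. SPC25 was at 25.7 and 35.0 against 8.28, 5.46 and 14.6, a difference of -1.66, and SPC24 at 31.4 and 24.7 against 18.4, 9.83 and 14.6, a difference of -0.96. Their adjusted p-values were 0.267 and 0.401 in limma, and the lowest SPC25 library rests on 5 reads. All 4 subunits were thus lower with each siRNA, and with their transcript lengths taken into account the Ctr-KD level was 31.3 normalized counts per kb for NDC80, 31.6 for NUF2, 22.6 for SPC25 and 12.3 for SPC24.

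The scaffold complexes of the outer kinetochore were uneven. ZWINT, which binds KNL1, had 144 and 116 normalized counts in Ctr-KD cells and 74.5, 59.0 and 89.8 in NSD2-KD cells, a difference of -0.81 (unadjusted p = 0.00432, adjusted p = 0.267 from limma). KNL1, listed as CASC5, which docks the checkpoint proteins, was at 119 and 112 against 109.5, 33.9 and 72.2, and the wide spread between siRNAs left a difference of -0.83 with an interval from -1.77 to 0.11. In the 4-subunit MIS12 complex, which joins the inner network to the NDC80 complex, DSN1 was at 38.1 and 41.2 against 28.5, 15.3 and 22.5, and MIS12 at 34.3 and 28.8 against 17.5, 16.4 and 20.5. Their differences were -0.86 and -0.77 (adjusted p = 0.404 and 0.384 in limma), and neither overlapped with Ctr-KD cells. The other two subunits were nearer to 0. PMF1 was at 65.7 and 72.0 against 69.0, 74.3 and 57.6, a difference of -0.05 with an interval from -0.46 to 0.37, and exons of the PMF1-BGLAP readthrough gene cover 23.3% of its exonic bases. NSL1 was at 59.1 and 65.8 against 57.1, 55.7 and 42.0, a difference of -0.28. The direction of PMF1 turned under some settings. The difference between subunits of the complex was not tested.

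**Figure D2:**
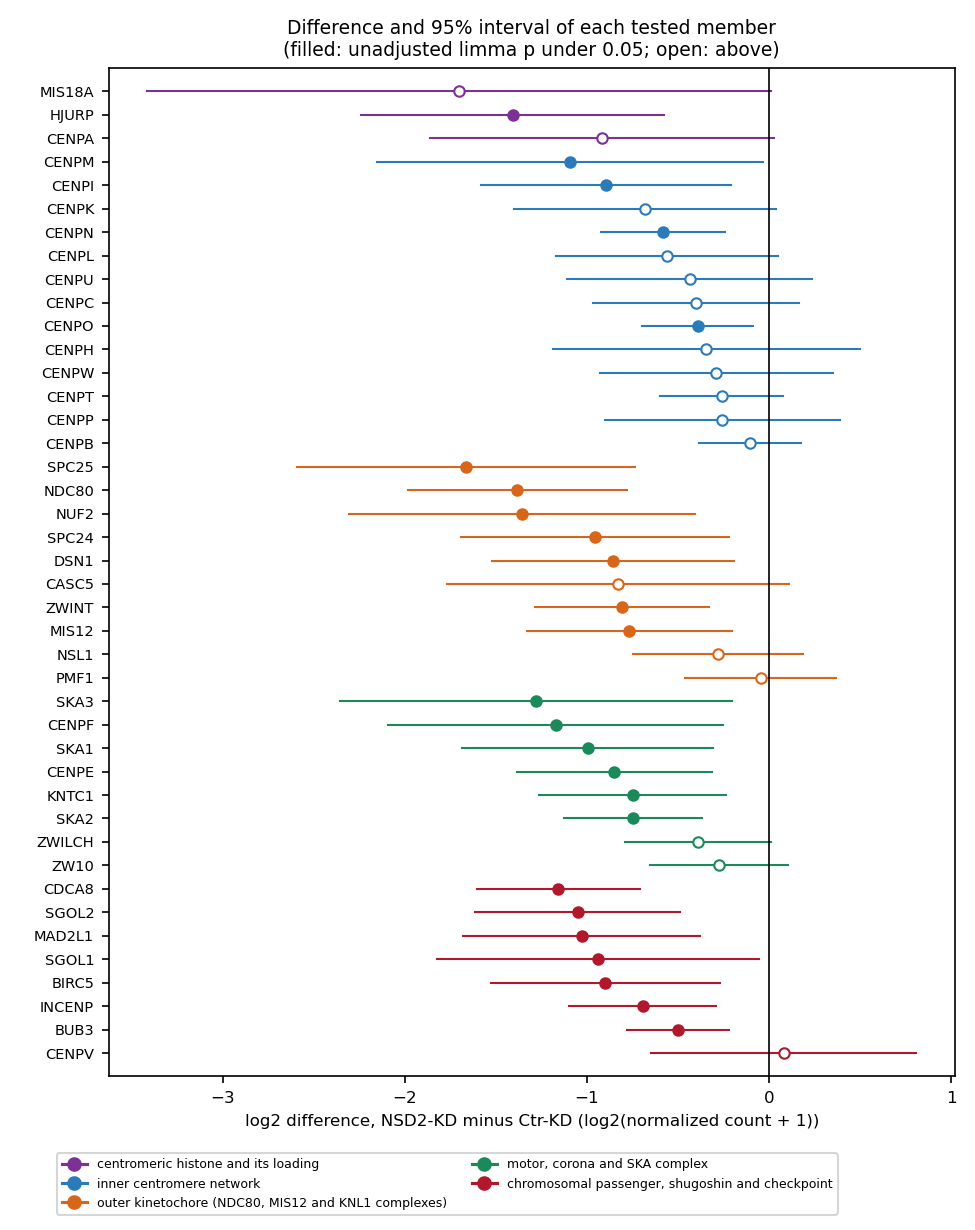
Log2 difference between NSD2-KD and Ctr-KD cells on log2(normalized count + 1) for each of the 42 tested members, with its 95% interval from limma, coloured by role and ordered within it. Filled points have an unadjusted p under 0.05, of which there are 25, and CENPV alone lies above 0.

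The motor, corona and SKA genes attach and move chromosomes along microtubules. All 8 lay below Ctr-KD cells without overlap, 6 were lower at an unadjusted p under 0.05 (13.9% and 4.99% of all tested genes), and the median log2 difference was -0.80. CENPF, a large protein of the outer corona, had 567 and 581 normalized counts in Ctr-KD cells and 297, 131 and 421 with NSD2-1, NSD2-2 and NSD2-3. The libraries of the 3 siRNAs were spread widely but all were below both Ctr-KD libraries, which gave a difference of -1.17 with a standard error of 0.40 (adjusted p = 0.405 from limma). CENPE, a plus-end-directed kinesin, was at 185 and 195 against 129.7, 74.3 and 120.1, a difference of -0.85 (unadjusted p = 0.00619, adjusted p = 0.298 from limma). The SKA complex holds on to shortening microtubules. SKA2 was at 189.6 and 157 against 93.9, 96.1 and 119, a difference of -0.75 with a smaller spread between siRNAs (standard error 0.17, adjusted p = 0.227 from limma). SKA3 was at 68.6 and 64.8 against 41.4, 12.0 and 38.1, and SKA1 at 36.2 and 35.0 against 22.1, 12.0 and 19.5. In both of these NSD2-2 was lowest. The difference of SKA3 was -1.28, that of SKA1 had an interval from -1.69 to -0.31, and the adjusted p-values were 0.443 and 0.35 in limma.

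The ROD-ZW10-ZWILCH complex recruits dynein to unattached kinetochores. KNTC1, which encodes ROD, had 82.9 and 86.4 normalized counts in Ctr-KD cells and 63.5, 39.3 and 49.8 in NSD2-KD cells, a difference of -0.75 (unadjusted p = 0.00948, adjusted p = 0.344 from limma). ZWILCH was at 81.0 and 98.8 against 69.9, 61.2 and 73.2, a difference of -0.39 with an interval from -0.79 to 0.01. ZW10, which also works in membrane traffic outside mitosis, was at 73.4 and 67.9 against 58.9, 60.1 and 55.6. Its groups did not overlap either, but the difference of -0.27 had an interval from -0.65 to 0.10.

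Of the 8 chromosomal passenger, shugoshin and checkpoint genes, 7 were lower at an unadjusted p under 0.05 and lay below Ctr-KD cells without overlap (4.99% and 13.9% of all tested genes), and the median log2 difference was -0.92. CDCA8, which encodes the passenger subunit borealin, had 109 and 108 normalized counts in Ctr-KD cells and 50.6, 39.3 and 55.6 in NSD2-KD cells. These values left a wide gap between the groups and gave the lowest p of all members (difference -1.16, standard error 0.19, unadjusted p = 0.000311, adjusted p = 0.147 from limma). BIRC5, which encodes survivin, was at 218 and 223 against 136, 76.5 and 157, a difference of -0.90 (standard error 0.27, adjusted p = 0.351 from limma). INCENP, the scaffold that activates Aurora B, was at 151 and 167 against 114, 80.8 and 101, a difference of -0.69 (standard error 0.18, adjusted p = 0.267 from limma). All 3 non-kinase subunits of the passenger complex were thus lower with each siRNA. CENPV, which helps to form centromeric heterochromatin, was the only tested member with a difference above 0. It had 23.8 and 26.7 normalized counts in Ctr-KD cells and 17.5, 32.8 and 33.2 in NSD2-KD cells, a difference of 0.08 with an interval from -0.65 to 0.81, and its direction turned under some settings.

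Shugoshins protect centromeric cohesion. SGOL2, the gene of SGO2, had 77.2 and 86.4 normalized counts in Ctr-KD cells and 46.0, 28.4 and 44.9 in NSD2-KD cells, a difference of -1.05 (standard error 0.25, unadjusted p = 0.00249, adjusted p = 0.241 from limma). SGOL1 was at 17.1 and 25.7 against 14.7, 6.55 and 11.7, a difference of -0.94 that rests on few reads (adjusted p = 0.508 from limma). Among the checkpoint genes, MAD2L1, whose product is the core of the inhibitor of anaphase, was at 85.7 and 89.5 against 57.1, 28.4 and 46.9, a difference of -1.03 (adjusted p = 0.298 from limma). BUB3, which recruits BUB1 and BUBR1 to KNL1 and also takes part in splicing, had more reads and a smaller difference. It was at 394 and 349 against 275, 238 and 274, a difference of -0.50 with an interval from -0.78 to -0.22 (adjusted p = 0.267 from limma).

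**Figure D3:**
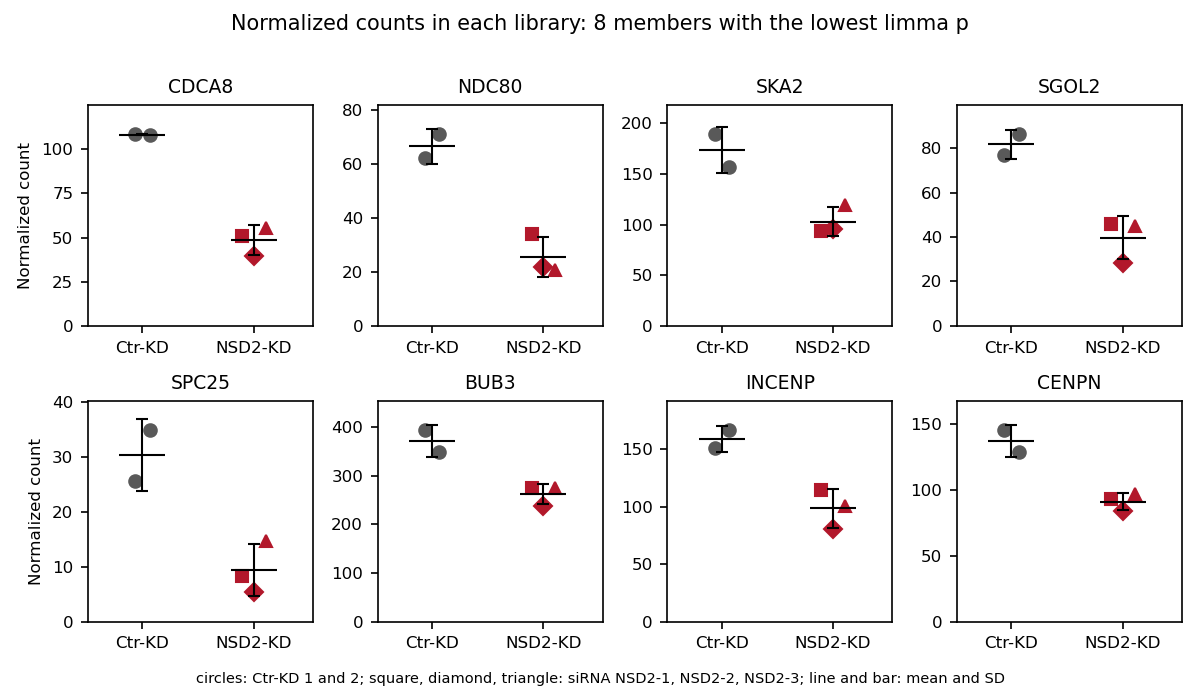
Normalized counts in each library for the 8 members with the lowest p in limma, with circles for the 2 Ctr-KD libraries, a square, diamond and triangle for NSD2-1, NSD2-2 and NSD2-3, and a line and bar for the mean and SD. In all 8 panels the NSD2-KD libraries lie below both Ctr-KD libraries, for CDCA8 at 39.3 to 55.6 against 108 and 109.

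The values of these genes were spread among the 3 NSD2-KD libraries. Relative to the Ctr-KD mean, the median over the 42 tested members was -0.54 with NSD2-1, -1.18 with NSD2-2 and -0.58 with NSD2-3, while the medians over all tested genes were 0.01, 0.01 and 0.00. The NSD2-2 library was the lowest of the 5 for 29 of the 42, NSD2-3 for 8, NSD2-1 for 5 and a Ctr-KD library for 0, whereas NSD2-2 was the lowest for 24.7% of all tested genes. Among the members with large differences, NDC80 was lowest with NSD2-3. Its normalized counts of 20.5 with NSD2-3 and 21.8 with NSD2-2 were too close to set an order. Summed over all 44 members, the libraries held 4260.3 and 4312 normalized counts in Ctr-KD cells and 2936, 2225 and 2996 with NSD2-1, NSD2-2 and NSD2-3. Without the NSD2-2 library the median difference was -0.59, with 26 of 43 members lower at an unadjusted limma p under 0.05 (5.84% of all tested genes). With 1 library per siRNA, no test between siRNAs was made.

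**Figure D4:**
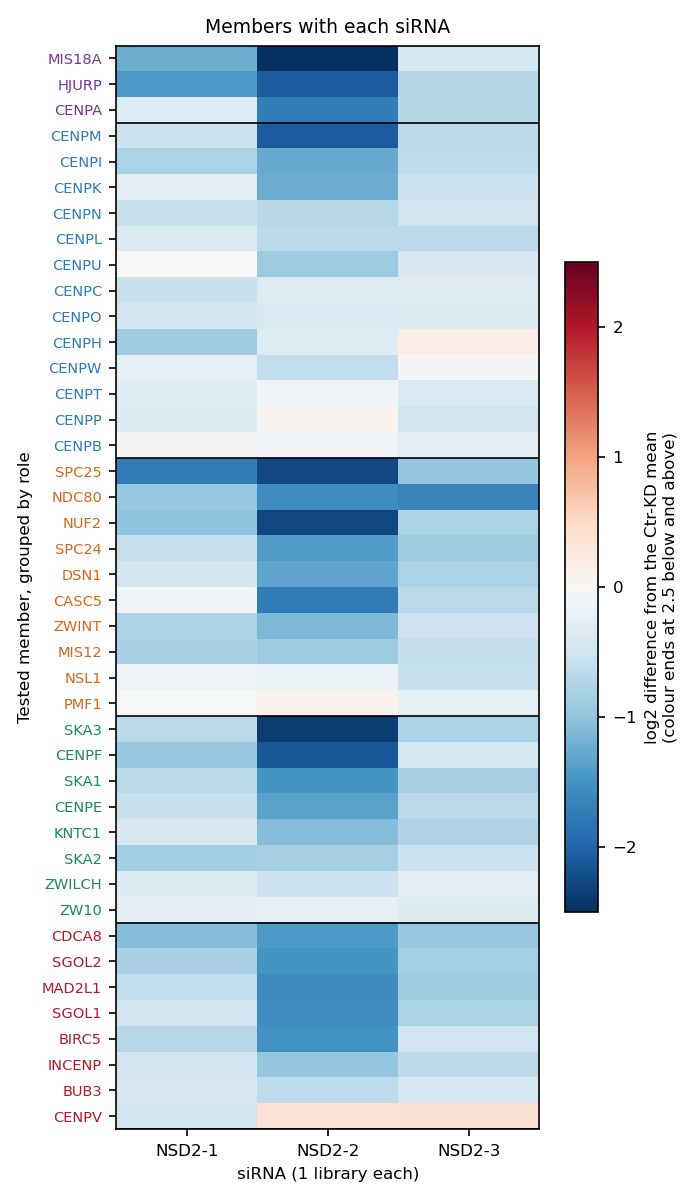
Log2 difference of each NSD2-KD library from the mean of the Ctr-KD libraries, on log2(normalized count + 1), for the 42 tested members grouped by role, with blue below and red above the Ctr-KD mean. The NSD2-2 column is the darkest in most rows, with a median of -1.18 against -0.54 and -0.58.

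The sizes of the differences were also set beside the cell cycle phase lists that come with the Seurat package. The G2/M list holds 8 of the members (BIRC5, CDCA8, CENPA, CENPE, CENPF, HJURP, NDC80 and NUF2), and their median log2 difference was -1.16, with 8 of 8 below Ctr-KD cells without overlap and 7 lower at an unadjusted p under 0.05 (13.9% and 4.99% of all tested genes). The S phase list holds CENPU alone, at 36.2 and 35.0 normalized counts in Ctr-KD cells and 35.9, 18.6 and 26.4 in NSD2-KD cells. The other 33 tested members had a median of -0.69. Of them, 27 lay below Ctr-KD cells without overlap and 18 were lower at an unadjusted p under 0.05 (13.9% and 4.99% of all tested genes). Whether these differ from the G2/M members was not tested. The 21 members that averaged 50 normalized counts or more had a median of -0.75. Of them, 14 were lower at an unadjusted p under 0.05 and 19 lay below Ctr-KD cells without overlap (4.99% and 13.9% of all tested genes). The 21 tested members under 50 had a median of -0.90, with 11 and 16. Shares of all genes within each range of counts were not computed in this fit, and the difference between these sets was not tested.

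Levels of the members before knockdown spanned a wide range. As normalized counts per kb of transcript in Ctr-KD cells, CENPB was highest at 127, followed by BIRC5 at 85.7, ZWINT at 70.0 and PMF1 at 64.5, and the lowest were CENPP at 2.73, NSL1 at 4.76 and CENPC at 5.33. These levels use 1 transcript per gene, and long untranslated ends lower them, as for NSL1 with a transcript of 13115 bases. For BIRC5 the level was 84.8 and 86.7 per kb in the Ctr-KD libraries and 52.9, 29.7 and 61.1 per kb with NSD2-1, NSD2-2 and NSD2-3. Exons of other listed genes overlap those of 15 members on GRCh37, for 7 of them over more than 10% of exonic bases (CENPO, CENPP, CENPT, CENPU, OIP5, PMF1 and ZWILCH). The strand setting of the counting is not given in the sources used here, and these counts are uncertain.

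A list of 26 other genes that work at the kinetochore, all of which were tested, gave a mixed picture. At an unadjusted limma p under 0.05, 12 were lower (46.2%) and 0 higher, against 4.99% and 4.19% of all tested genes, 18 lay below Ctr-KD cells without overlap (13.9% of all tested genes), and the median log2 difference was -0.54. The checkpoint kinase gene BUB1 had 141 and 135 normalized counts in Ctr-KD cells and 63.5, 37.1 and 60.5 in NSD2-KD cells (difference -1.38, adjusted p = 0.164 from limma and 0.0017 from DESeq2). AURKB, the kinase of the passenger complex, was at 80.0 and 102 against 34.0, 21.8 and 45.9 (difference -1.45, adjusted p = 0.201 from limma and 0.0163 from DESeq2). CDC20, the target of the checkpoint, was at 228 ± 30.6 (SD, n = 2) against 112 ± 24.1 (SD, n = 3) without overlap (difference -1.04, adjusted p = 0.197 from limma and 0.0122 from DESeq2). DESeq2 called these 3 of the 23 that it gave an adjusted p, against 0.471% lower among all genes for which it gave one. The others past an unadjusted p of 0.05 in limma were BUB1B, ITGB3BP, KIF18A, KIF2C, PLK1, SPAG5, SPDL1, TRIP13 and TTK, with differences from -1.20 to -0.79. ITGB3BP encodes CENP-R, a further subunit of the inner network, with 21.9 and 26.7 normalized counts against 14.7, 9.83 and 6.83. Of the 4 genes listed for dynein recruitment, SPDL1 was among these, at 136 and 127 against 87.4, 74.3 and 66.4, and the other three lay nearer to 0. PAFAH1B1, which encodes LIS1, was at 518 and 485 against 509, 478 and 562, a difference of 0.04 with an interval from -0.21 to 0.29, and NDE1 had a difference of -0.09. NDEL1, at 214 and 198 in Ctr-KD cells and at least 224 in each NSD2-KD library, was the only gene of the list above Ctr-KD cells without overlap, and its difference of 0.21 had an interval from -0.07 to 0.48 (it is named after its values were seen).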

How the data were processed

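Libraries were grouped by the sample titles into 2 Ctr-KD and 3 NSD2-KD, all of IMR-90 cells. For these the authors used Trimmomatic for trimming, HISAT2 for mapping to hg19, SAMtools to select unique alignments and featureCounts to count, and then divided by DESeq2 size factors. The signal in the deposited table is this normalized count per gene. The annotation and strand setting used for counting are not given in the sources used here. Dividing by the value of 1 read gave whole numbers (tolerance 0.001) for 100% of the values, and these reads were used in edgeR and DESeq2, which called 11 and 44 genes lower. The second deposited table holds the authors' fold changes and p-values and was not used.

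The comparison was made on log2(normalized count + 1) with limma 3.58.1 and its trend option, over 11313 genes with a mean of at least 10, with Benjamini-Hochberg adjustment over all of them and a threshold of 0.05. All tests were two-sided. With 2 and 3 libraries the smallest p of an exact permutation test is 0.1. Alternatives were other pseudocounts (0.5 and 5), no filter or a minimum of 50, no trend, edgeR 4.0.16, DESeq2 1.42.0, quantile normalization, total-read scaling, the replicate number as a block and each replicate left out (with 1 Ctr-KD library, it is assumed to vary like the NSD2-KD libraries). Averaging the Ctr-KD libraries was added after the data were seen. The fits were run on simulated counts with large changes and the same spread in both groups, as a check of the code. That check does not show how often smaller differences are found. Positions, transcript lengths and exon overlaps came from GENCODE on GRCh37, the assembly of hg19. Values in every library are given for members at an unadjusted p under 0.05, members called by any tool, members nearest to 0 in their role group and any member above 0, and other genes are named by the same p or for lying nearest to 0. The members and lists were chosen with earlier results of these data known.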

Additional observations from a re-analysis of the deposited data

How the results depend on the processing

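The median log2 difference of the members stayed below 0 in all settings tried, from -0.92 without NSD2-KD replicate 1 to -0.59 without NSD2-KD replicate 2. No setting gave a member called higher. Members lower at an unadjusted p numbered from 12 to 29 with 1 replicate left out, and 13 with the Ctr-KD libraries averaged. Those below without overlap numbered from 35 to 38 with 1 replicate left out, and the number called after adjustment was 0 in each. Separation without overlap is easier to reach with fewer libraries. The matching share of all tested genes was not computed, so the range from 35 to 38 does not show stability. Lower at an unadjusted p under 0.05 were 5.84% to 6.82% of all tested genes with 1 NSD2-KD library left out. In all 5 libraries this share was 4.99%. A minimum mean count of 50 left 21 members, of which 14 were lower at an unadjusted p (4.56% of all tested genes). Of these 21 members, 19 did not overlap, and the matching share of all tested genes was not computed. After adjustment DESeq2 called 2 members.

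Over all genes, the lower and higher calls were 6 and 4 as reported, 1 and 0 without the trend, 44 and 14 with DESeq2 and 0 and 0 with the Ctr-KD libraries averaged. edgeR called 11 lower and quantile normalization 8 higher. With 1 replicate left out the lower calls ranged from 0 to 22 and the higher calls from 0 to 8. The cause of these changes was not tested.

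Fitting the replicate number as a block gave 84 lower and 18 higher genes and 6 members (BIRC5, CDCA8, CENPF, HJURP, NUF2 and SPC25). Since number 3 occurs in NSD2-KD cells only, this fit takes no information on the difference from NSD2-3. The numbers are not known to pair cultures, and the differences between libraries 1 and 2 of both groups had a correlation of -0.02 across 11313 genes, which are not independent replicates.

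The direction turned for PMF1 with quantile normalization (0.0039) and the block (0.057), and its difference ranged from -0.12 without NSD2-KD replicate 2 to 0.057 without NSD2-KD replicate 3, with 0.018 without Ctr-KD replicate 2. CENPV had -0.071 with the block, and with 1 replicate left out it ranged from -0.071 without NSD2-KD replicate 3 to 0.37 without NSD2-KD replicate 1, with -0.062 without NSD2-KD replicate 2 and -0.00058 without Ctr-KD replicate 1. CENPW ranged from -0.61 without Ctr-KD replicate 1 to 0.036 without Ctr-KD replicate 2. Of the values of single members under the alternatives, 634 kept direction and stayed uncalled, 9 turned and 8 came to pass the threshold on the adjusted p. The 13 members to which DESeq2 gave no adjusted p count as uncalled there. Counting error limits members with few reads most.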

Other observations

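The order of the siRNAs was not the same for all proliferation genes. MKI67, the gene of the Ki-67 antigen, had 912 and 967 normalized counts in Ctr-KD cells and 481, 217 and 110.3 with NSD2-1, NSD2-2 and NSD2-3, and TOP2A, which encodes topoisomerase II alpha, had 629 and 662 against 419, 274 and 221. Both were thus lowest with NSD2-3, whereas 29 of the 42 tested kinetochore and centromere genes were lowest with NSD2-2. PCNA, the replication clamp, was at 222 and 217 against 136, 132 and 196, and was highest of the NSD2-KD libraries with NSD2-3. With 1 library per siRNA these orders were not tested.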
